A study of Zea mays with 12 samples.

Results

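The genes described here are meg2 and meg6 of the maternally expressed gene (MEG) family, ESR1c1 and esr2 of the embryo-surrounding region (ESR) family, and ebe1 and ebe2, genes of the embryo sac and basal endosperm. They are 6 of the 1108 genes that the platform annotation names. All probe sets that it assigns to them by symbol or synonym were taken, which gave 10 of the 17621 probe sets tested. RNA came from maize embryos at 19 days after pollination on field-grown plants of 4 genotypes, with 3 arrays each: the hybrids B73xMo17 and Mo17xB73 and the inbred lines B73 and Mo17. A cross is written here with the seed parent first, the usual convention, which the labels do not spell out. Each array is a separate biological replicate, and arrays with the same replicate number come from 1 collection date, so each of the 3 dates holds all 4 genotypes.

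The maize endosperm, the nourishing tissue beside the embryo, has specialised zones. Its basal transfer layer takes up sugars and amino acids from the mother plant, and its embryo-surrounding region lines the cavity in which the embryo grows. MEG genes encode small secreted cysteine-rich peptides, and the founding member, Meg1, is known for expression in the basal transfer layer, at first from the maternally inherited allele. ESR genes encode small secreted proteins that carry the motif of the CLE signalling peptides, and ebe1 and ebe2 were described as transcripts of the central cell and of the young basal endosperm. The 2 reciprocal hybrids carry the same nuclear genomes in the embryo and differ in which line gave the seed. That sameness is stated for the embryo only, and the dose of each line's genome in the endosperm was not examined.

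The labels name embryo as the tissue, and all 9 embryo marker genes on the array (storage globulins, an oleosin and late embryo proteins) were above the low end of the scale on all 12 arrays. The low end is a floor of 27.6 signal units, the 25th percentile of all normalized values. All 15 markers of the starchy endosperm, such as the zein storage protein genes, were also above that floor on all 12 arrays, as were 7 of 10 genes of the basal transfer layer. Summed over the 15 starchy endosperm genes the normalized signal ran from 82544 to 86188 in B73xMo17, from 71399 to 80387 in Mo17xB73, from 77400 to 85200 in B73 and from 56413 to 72107 in Mo17. In a bulk RNA sample, fewer cells of a type and less RNA per cell cannot be told apart.

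The signal of meg2, a MEG family member, differed widely between genotypes. It was highest in Mo17xB73, then in Mo17, then in B73xMo17, and lowest in B73, and of the neighbours in that order only B73xMo17 and B73 differed past the threshold. The order was the same in both probe sets of the gene. In the first, Zm.12666.1.S1_a_at, normalized signals were 2711, 1862 and 2760 in B73xMo17 (replicates 1 to 3). They were 4295, 5391 and 4858 in Mo17xB73. In the inbreds they were 856, 1073 and 1340 in B73 and 3060, 4657 and 2902 in Mo17. Every B73 array lay below every array of the other 3 genotypes, and the hybrids did not overlap each other. The levels of Mo17xB73 and Mo17 overlapped through Mo17 replicate 2.

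The second meg2 probe set, Zm.12666.1.S1_x_at, gave 1527, 899 and 1603 signal units in B73xMo17 and 2654, 3320 and 2906 in Mo17xB73. It gave 505, 616 and 686 in B73 and 1769, 2689 and 1653 in Mo17. It was dimmer than the first on every array and again put B73 below all other arrays and the hybrids apart.

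**Figure D1:**
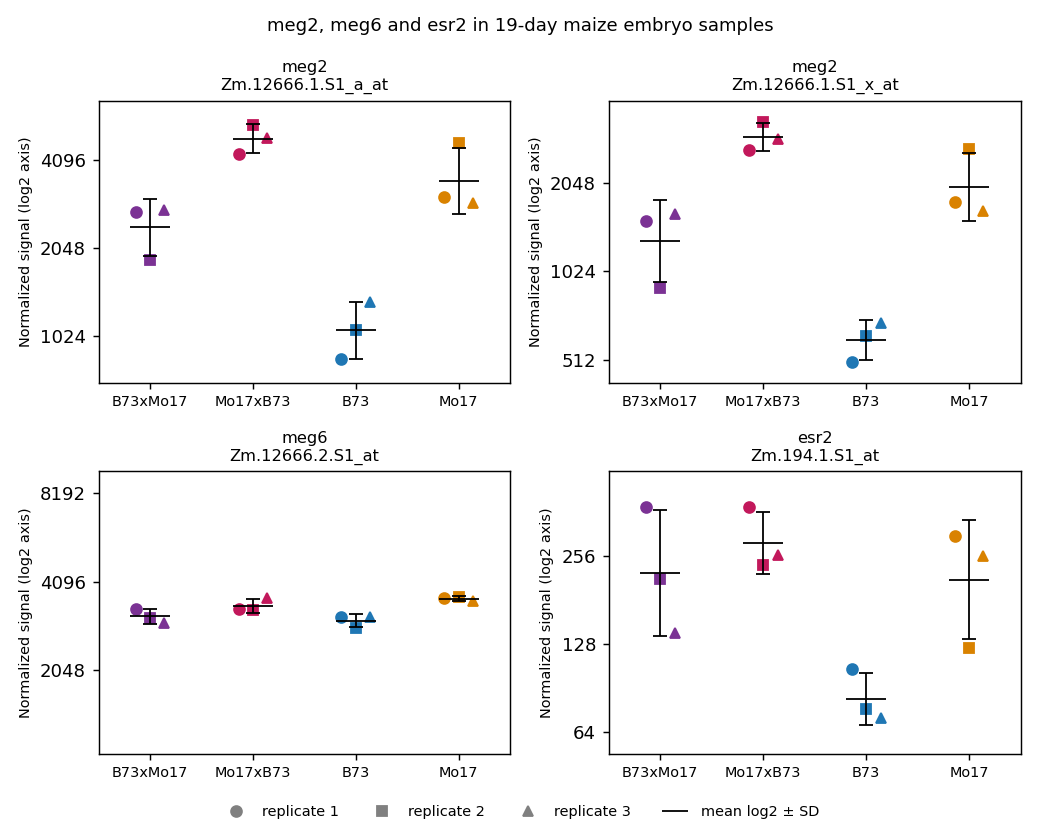
Normalized signal (log2 axis, each panel spanning the same number of doublings) of the 2 meg2 probe sets, of meg6 and of esr2 in B73xMo17, Mo17xB73, B73 and Mo17. Symbols are the 3 replicates of a genotype and black bars give the mean log2 signal ± SD. Both meg2 panels put Mo17xB73 at the top and B73 at the bottom, meg6 stays between 2839 and 3634 on all 12 arrays, and esr2 is lowest in B73.

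On the log2 scale the first meg2 probe set measured 11.23 ± 0.32 in B73xMo17, 12.24 ± 0.16 in Mo17xB73, 10.07 ± 0.32 in B73 and 11.76 ± 0.37 in Mo17 (mean ± SD, n = 3). Differences were tested with limma, a linear model fitted over all probe sets, and one is called where the p adjusted over all of them is below 0.05. Between the inbreds B73 was 3.23-fold lower than Mo17 (log2 difference -1.69 ± 0.20, SE; limma adjusted p = 1.4e-05). The second probe set gave -1.73 ± 0.22 (limma adjusted p = 2.2e-05). The difference was negative on each of the 3 dates in both probe sets, between -2.12 and -1.12 in the first. Over all probe sets 35.9% were called in this comparison, so a call alone is common there. The suffix of the second probe set is Affymetrix's mark for probes that may bind related transcripts, and both probe sets come from 1 gene, so they are not independent.

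There are 2 pairs of genotypes that share the pollen parent and differ in the seed parent. Each pair also sets a hybrid against an inbred, which cannot be told apart from the change of seed parent. With B73 pollen, Mo17 as seed parent (Mo17xB73) had a signal 4.50-fold higher in the first probe set and 4.93-fold higher in the second than B73 as seed parent (the B73 inbred). Those log2 differences were 2.17 ± 0.20 (limma adjusted p = 6e-06) and 2.30 ± 0.22 (limma adjusted p = 7.2e-06), in a comparison in which 16.4% of all probe sets were called. With Mo17 pollen, B73 as seed parent (B73xMo17) against Mo17 as seed parent (the Mo17 inbred) gave -0.52 ± 0.20 (limma adjusted p = 0.08) and -0.61 ± 0.22 (limma adjusted p = 0.059), neither past the threshold. With median centring both were called (-0.67, adjusted p = 0.030, and -0.74, adjusted p = 0.023), and the second was also called with the filter on dim probe sets (-0.61, adjusted p = 0.046), without Mo17 replicate 3 (-0.74, adjusted p = 0.048) and without B73xMo17 replicate 3 (-0.76, adjusted p = 0.041). These 2 comparisons share no arrays.

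Each hybrid was also set against the inbred that shares its seed parent, so that the pollen parent differs. Here too, the change from inbred to hybrid cannot be told apart from the change of pollen. On B73 as seed parent, Mo17 pollen went with a signal 2.25-fold higher than B73 pollen in the first probe set (B73xMo17 against B73, 1.17 ± 0.20, limma adjusted p = 0.0016) and 2.18-fold higher in the second (1.12 ± 0.22, limma adjusted p = 0.0038). This comparison called 11.0% of all probe sets. On Mo17 as seed parent, B73 pollen against Mo17 pollen (Mo17xB73 against Mo17) gave 0.48 ± 0.20 (limma adjusted p = 0.13) and 0.57 ± 0.22 (limma adjusted p = 0.096). Both differences were positive on all 3 dates but did not pass the threshold. Without Mo17 replicate 2 they were called in both probe sets (0.69 and 0.79, limma adjusted p = 0.029 and 0.027), and without B73xMo17 replicate 2 in the second (0.57, limma adjusted p = 0.036).

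The reciprocal hybrids differed in meg2. B73xMo17 was 2.01-fold lower than Mo17xB73 in the first probe set (-1.004 ± 0.200, limma adjusted p = 0.036) and 2.27-fold lower in the second (-1.18 ± 0.22, limma adjusted p = 0.024). Only 0.868% of all probe sets were called in this comparison. The other 8 probe sets of the 6 genes were not called. All 10 had a negative difference, but with the floor it was 0 for ebe1 and for ESR1c1 Zm.13249.1.A1_a_at, Zm.13249.1.A1_at and Zm.13249.1.S1_a_at. The median difference of all probe sets was 0.01, and the share of them with a negative difference was not counted. The within-date differences of the first meg2 probe set were -0.66, -1.53 and -0.82, and those of the second were -0.80, -1.88 and -0.86. The calls rest on few arrays. That of the first probe set was lost without any 1 of the 6 hybrid arrays or B73 replicate 2 (adjusted p up to 0.137), and that of the second without Mo17xB73 replicate 2 or 3 or B73xMo17 replicate 2 (up to 0.0969). Both calls were also lost with a floor on low signals (adjusted p = 0.14 and 0.11) and without limma's intensity trend (0.164 and 0.132), with the differences themselves unmoved, and that of the first with the values as deposited (0.089).

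On a linear scale that sets the mean of B73 at 0 and that of Mo17 at 1, B73xMo17 stood at 0.553 ± 0.206 and Mo17xB73 at 1.53 ± 0.22 in the first meg2 probe set (SD over 3 hybrid arrays, which leaves out the spread of the inbreds). The second probe set gave 0.516 ± 0.269 in B73xMo17 and 1.64 ± 0.23 in Mo17xB73. B73xMo17 thus lay near the middle of the inbreds and all 3 Mo17xB73 arrays lay above the Mo17 mean. The mean of both hybrids stood 0.59 ± 0.15 (log2, SE) above the mid-parent level (log2 of the mean linear signal of B73 and Mo17) in the first probe set and 0.60 ± 0.16 in the second. Neither was called (limma adjusted p = 0.12 and 0.14), in a comparison that called 0.528% of all probe sets (0.261% lower). None of the 10 probe sets passed limma's threshold there. An unadjusted limma p below 0.05 was found for 4 of them (both of meg2, esr2 and ebe1) and for 2169 of all 17621 probe sets. The first meg2 probe set was called without Mo17 replicate 2 (0.75, limma adjusted p = 0.044) and the second without B73xMo17 replicate 2 (0.73, limma adjusted p = 0.038). With a mid-parent taken as the mean of the log2 levels both were called (0.82 and 0.85, limma adjusted p = 0.0025 and 0.0038), but so were 5.0% of all probe sets, 763 of the 881 called being higher.

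The second MEG gene, meg6, was nearly level across the genotypes. Its probe set, Zm.12666.2.S1_at, had signals of 3312, 3072 and 2960 in B73xMo17 and of 3303, 3261 and 3589 in Mo17xB73. The inbred values were 3103, 2839 and 3093 in B73 and 3594, 3634 and 3505 in Mo17. The whole range over 12 arrays was therefore narrow, and Mo17 did not overlap B73 or B73xMo17.

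Means of meg6 were 11.60 ± 0.08 in B73xMo17, 11.72 ± 0.07 in Mo17xB73, 11.56 ± 0.07 in B73 and 11.80 ± 0.03 in Mo17 (mean log2 ± SD, n = 3). B73 was 1.19-fold lower than Mo17 (-0.25 ± 0.06, limma adjusted p = 0.005) and B73xMo17 was 1.15-fold lower than Mo17 (-0.20 ± 0.06, limma adjusted p = 0.029), where 22.3% of all probe sets were called. Both calls were lost with the values as deposited (adjusted p = 0.697 and 0.767), and the second also without the intensity trend (0.0739) and without Mo17 replicate 1 or 2 or B73xMo17 replicate 2 or 3 (up to 0.111). The reciprocal hybrids differed by -0.12 ± 0.06 (limma adjusted p = 0.49).

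The MEG genes were also set against each other within each array. The log2 signal of the first meg2 probe set minus that of meg6 averaged -1.49 ± 0.33 in B73 and -0.05 ± 0.35 in Mo17, and -0.37 ± 0.32 in B73xMo17 and 0.51 ± 0.19 in Mo17xB73 (SD, n = 3). Only the change of this difference between genotypes is read, since probe sets differ in brightness. The groups of either pair did not overlap. The two-sided exact permutation test gave p = 0.1 for both pairs, which is the smallest that 3 arrays against 3 allow. The IDs of the meg2 and meg6 probe sets share a cluster number, and RefSeq lists MEG6 as a synonym of the meg2 gene (LOC100125634), while the gene ID that the platform gives for meg6 was not matched there. Another RefSeq gene named Meg2 lies on the same chromosome with 3 annotated genes between them, and one named MEG1 with 8 between. How far probes for these copies bind each other's transcripts was not tested.

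Of the ESR genes, esr2 was low in B73 and higher in the other 3 genotypes. Its probe set, Zm.194.1.S1_at, gave 377, 213 and 140.1 signal units in B73xMo17 and 375, 237 and 257 in Mo17xB73. It gave 105 and 76.6 and 71.6 in B73, and 300.0, 125 and 257 in Mo17. All 12 values lay above the floor. No B73 array overlapped any other genotype, while the other 3 overlapped widely, with 1 low array each in B73xMo17 (replicate 3) and Mo17 (replicate 2).

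The level of esr2 was 7.81 ± 0.72 in B73xMo17, 8.15 ± 0.35 in Mo17xB73, 6.38 ± 0.30 in B73 and 7.73 ± 0.68 in Mo17 (mean log2 ± SD, n = 3). B73 was 2.55-fold lower than Mo17 (-1.35 ± 0.36, limma adjusted p = 0.0093). Mo17xB73 was 3.41-fold higher than B73 (1.77 ± 0.36, limma adjusted p = 0.0042), with log2 differences of 1.83, 1.63 and 1.84 on the 3 dates. B73xMo17 was 2.69-fold higher than B73 (1.43 ± 0.36, limma adjusted p = 0.021), with log2 differences of 1.84, 1.48 and 0.97 on the 3 dates.

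The last call was lost with the floor (adjusted p = 0.0698), without the intensity trend (0.0685) and without B73xMo17 replicate 1 or 2 or B73 replicate 2 or 3 (up to 0.0882). Neither hybrid differed from Mo17 past the threshold: B73xMo17 stood at 0.08 ± 0.36 (limma adjusted p = 0.91) and Mo17xB73 at 0.42 ± 0.36 (limma adjusted p = 0.5). The reciprocal hybrids stood at -0.34 ± 0.36 from each other (limma adjusted p = 0.8). With standard errors of 0.36, a difference of the size seen for meg2 between the hybrids could have gone uncalled.

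**Figure D2:**
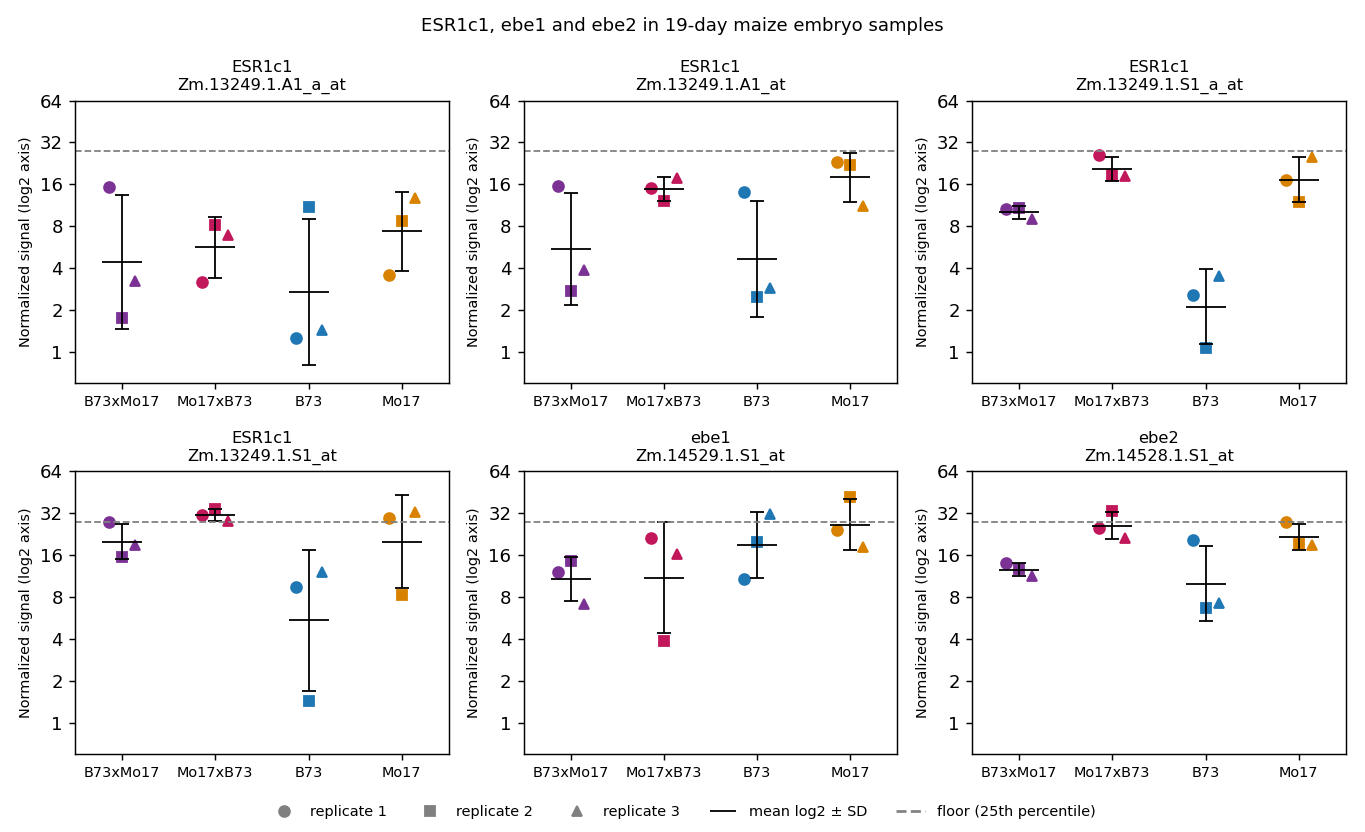
Normalized signal (log2 axis, 1 range for all panels) of the 4 ESR1c1 probe sets, ebe1 and ebe2 in B73xMo17, Mo17xB73, B73 and Mo17, with symbols for the 3 replicates, black bars for the mean log2 signal ± SD and a dashed line at the floor of 27.6. Of the 72 points 8 lie above the line, 5 of them from 1 ESR1c1 probe set.

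ESR1c1, the other ESR gene, was measured by 4 probe sets, and 3 of them stayed below the floor on all 12 arrays. The fourth, Zm.13249.1.S1_at, was above it on 5 arrays, all 3 of Mo17xB73 and 2 of Mo17. Its signals were 27.5, 15.4 and 18.8 in B73xMo17 and 31.2, 34.2 and 28.0 in Mo17xB73. They were 9.4 and 1.4 and 12.1 in B73, and 29.8, 8.3 and 32.4 in Mo17. B73 was below both hybrids on every array, as it was for esr2. The highest values of the other 3 probe sets were 15.2, 23.3 and 26.1.

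In the probe set Zm.13249.1.S1_a_at the signals of ESR1c1 were 10.6, 10.9 and 8.9 in B73xMo17, 26.1, 18.5 and 18.5 in Mo17xB73, 2.6, 1.1 and 3.5 in B73 and 17.2, 11.97 and 25.01 in Mo17. limma called B73 against Mo17 (-3.03 ± 0.51, adjusted p = 0.0003), B73xMo17 against B73 (2.25 ± 0.51, adjusted p = 0.01) and Mo17xB73 against B73 (3.29 ± 0.51, adjusted p = 0.00052). All of these signals lay below the floor, so with the floor these differences were 0.00 and no fold is given.

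Zm.13249.1.S1_at was called for Mo17xB73 against B73 (2.50 ± 0.72, limma adjusted p = 0.031), which shrank to 0.17 with the floor (adjusted p = 0.171). That call was also lost without the intensity trend (adjusted p = 0.0666) and without B73 replicate 2 or any Mo17xB73 array (up to 0.103). With the collection date as a block, 2 ESR1c1 probe sets gained a call between the inbreds, Zm.13249.1.A1_at (-1.95, limma adjusted p = 0.0273) and Zm.13249.1.S1_at (-1.87, limma adjusted p = 0.0272). The first was also called without B73 replicate 1 (-2.73) or B73xMo17 replicate 1 (-1.94), and was then called in 2 more comparisons, Mo17xB73 against B73 without B73 replicate 1 (2.46) and B73xMo17 against Mo17 without B73xMo17 replicate 1 (-2.46). The second was also called between the inbreds without B73 replicate 1 (-2.25), B73 replicate 3 (-2.44) or Mo17 replicate 2 (-2.51) and with median centring (-1.90). RefSeq lists ESR1c1 among the synonyms of the esr2 gene (LOC542448), and the next annotated gene there is named esr1. The gene ID that the platform gives for ESR1c1 was not matched, and whether the probe sets of ESR1c1 and esr2 report on 1 locus was not tested.

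The EBE genes were at or below the low end of the array. ebe1, probe set Zm.14529.1.S1_at, had signals of 12.1, 14.5 and 7.2 in B73xMo17, 21.3, 3.9 and 16.2 in Mo17xB73, 10.7, 19.9 and 31.6 in B73 and 24.2, 41.8 and 18.3 in Mo17. Only B73 replicate 3 and Mo17 replicate 2 were above the floor. No comparison of ebe1 was called, and its mid-parent difference of -1.05 ± 0.45 (limma adjusted p = 0.37) shrank to -0.13 with the floor.

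ebe2, probe set Zm.14528.1.S1_at, gave 13.99, 12.7 and 11.3 signal units in B73xMo17, 25.02, 33.2 and 21.2 in Mo17xB73, 20.5, 6.7 and 7.3 in B73 and 27.6, 19.3 and 19.0 in Mo17. The hybrids did not overlap, with Mo17xB73 the higher, but of their arrays only Mo17xB73 replicate 2 was above the floor. The share of all probe sets without overlap of the hybrids was not counted. Their difference in ebe2 of -1.04 ± 0.44 was not called (limma adjusted p = 0.39) and shrank to -0.09 with the floor (limma adjusted p = 0.71). The single call of ebe2, Mo17xB73 against B73 at 1.38 ± 0.44 (limma adjusted p = 0.0497), lay at the threshold. It shrank to 0.09 with the floor (adjusted p = 0.427), had an adjusted p of 0.168 with the values as deposited, and was lost without any 1 array other than B73 replicate 1 (up to 0.182). Between the inbreds ebe2 differed by -1.11 (limma adjusted p = 0.068), which was called without B73 replicate 1 (-1.63, limma adjusted p = 0.0068).

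The 10 probe sets are not independent, since meg2 has 2 of them and ESR1c1 has 4. Counted over the 10 probe sets, 5 (of 4 genes) were called lower in B73 than in Mo17 and 0 higher, against 19.5% of all probe sets called lower. In Mo17xB73 against B73, 6 (of 4 genes) were called higher and 0 lower, against 8.26% of all probe sets called higher and 8.18% lower. In B73xMo17 against B73, 4 (of 3 genes) were called higher and 0 lower, against 5.94% of all called higher and 5.01% lower. In B73xMo17 against Mo17 only meg6 was called, lower, against 11.4% of all called lower. In Mo17xB73 against Mo17 limma called 0, where 16.3% of all probe sets were called (7.45% lower). The unadjusted p was below 0.05 for 2 of the 10 (both of meg2) and for 4991 of all 17621. Median differences over the 10 were -1.57 for B73 against Mo17 (-0.06 over all probe sets), 1.72 for Mo17xB73 against B73 (-0.02 over all) and -0.82 for B73xMo17 against Mo17xB73 (0.01 over all). With the floor these medians shrank to -0.12, 0.13 and -0.10 (0 over all probe sets in each), 6 of the 10 probe sets being dim. Between the inbreds 4 of the 5 calls remained with the floor (all but that of ESR1c1). So did 3 of the 6 calls of Mo17xB73 against B73 (both meg2 probe sets and esr2) and 2 of the 4 of B73xMo17 against B73 (both of meg2). Without B73 replicate 1, 8 were called between the inbreds. The comparisons with B73 share its 3 arrays.

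**Figure D3:**
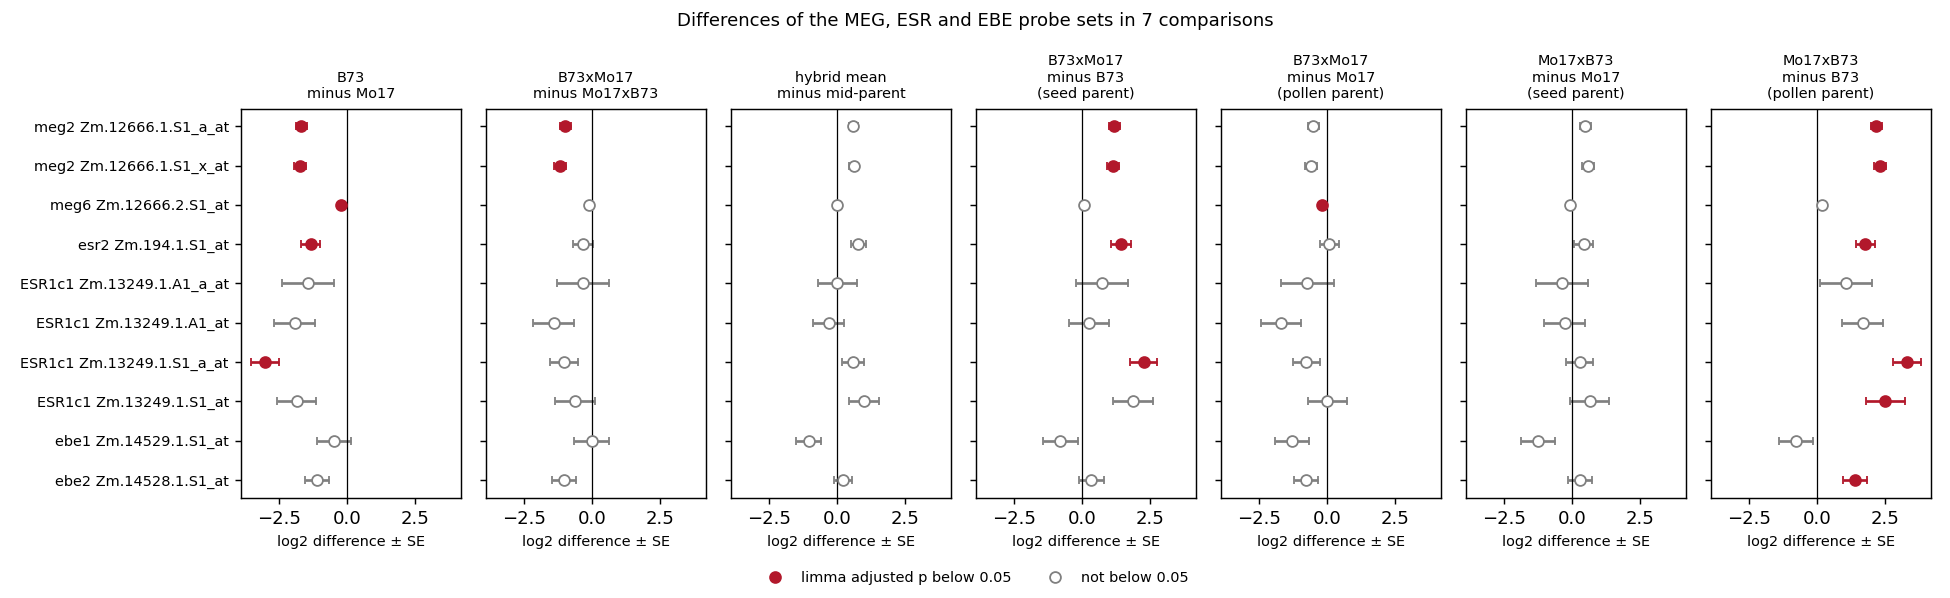
Log2 differences ± SE (limma) of the 10 probe sets in 7 comparisons, each named above its panel, with filled red points for an adjusted p below 0.05 and open grey points for the rest. The meg2 rows have filled points in 4 of the 7 panels, and the wide bars belong to the dim ESR1c1, ebe1 and ebe2 probe sets.

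Genes with the pattern most like each of the 6 were sought among 983 other named genes, each by its brightest probe set, as the Pearson correlation of log2 signals over the 12 arrays. These correlations are a description, since the 12 points share genotypes and dates. For meg2 the closest were betl2 (r = 0.986), bap-1a (r = 0.973) and betl1 (r = 0.970), named for the basal endosperm transfer layer and its antifungal proteins. betl2 measured 9.45 ± 0.41 in B73xMo17, 10.46 ± 0.37 in Mo17xB73, 8.01 ± 0.47 in B73 and 9.93 ± 0.40 in Mo17 (mean log2 ± SD, n = 3), the same order of genotypes as meg2. For meg6 they were the haemoglobin gene Hb2 (r = 0.916), MNB1a (r = 0.892) and AR6 (r = 0.881).

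For esr2 the closest were the embryo globulin gene glb2 (r = 0.852), the cellulose synthase gene CesA-2 (r = 0.817) and the heat shock gene hsp101 (r = 0.812). ESR1c1 had EXPB1B (r = 0.822), which was below the floor on all 12 arrays, glb2 (r = 0.814) and esr2 (r = 0.794). The nearest to ebe1 were prf1 (r = 0.814), spp1 (r = 0.789) and gar1 (r = 0.775), and to ebe2 bap-3a (r = 0.889), glb1 (r = 0.883) and wip1 (r = 0.821). Those of ebe1, ebe2 and ESR1c1 rest mostly on signals under the floor.

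Most genes of the basal transfer layer list ran in the order of meg2. Its 10 genes were given a mean log2 level per genotype, and 6 had that order: betl1, betl2, betl4, bap1-b, bap-1a and mn1. So did 1 of the 9 embryo genes (glb1), the androgenic embryo gene ae3 and 0 of the 15 starchy endosperm genes. The share of all probe sets with that order was not counted. Summed over the 10 basal transfer layer genes the normalized signal ran from 3967 to 5771 in B73xMo17, from 7157 to 10184 in Mo17xB73, from 2503 to 2841 in B73 and from 5383 to 8096 in Mo17. Of the 10 genes 7 were called lower in B73 than in Mo17 and 0 higher (median -1.30, against -0.06 over all probe sets, of which 19.5% were called lower). The 3 widest were bap-3a (-3.63 ± 0.69, but -0.05 with the floor), mn1, the cell wall invertase of the basal endosperm (-2.08 ± 0.34), and betl2 (-1.92 ± 0.27). Between the hybrids bap1-b (-1.33 ± 0.19, limma adjusted p = 0.0046) and bap-1a (-1.25 ± 0.18, limma adjusted p = 0.0061) were called lower in B73xMo17 than in Mo17xB73.

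In Mo17xB73 against B73, 8 of the 10 were called higher and 0 lower, against 8.26% of all probe sets called higher and 8.18% lower. Among the 8, bap-3a (3.52 ± 0.69) shrank to 0.05 with the floor. In B73xMo17 against B73, 7 were called higher and 0 lower, against 5.94% of all called higher and 5.01% lower. In B73xMo17 against Mo17, where meg2 had a negative difference, bap-3b (1.56 ± 0.38, but 0.62 with the floor) and betl3 were called higher, and bap1-b and bap-1a lower. Of all probe sets 10.9% were called higher and 11.4% lower there. Both bap-3b and betl3 were also called higher in Mo17xB73 than in Mo17, where 8.88% of all probe sets were called higher. The order of meg2 was not shared by betl3, bap-3a, bap-3b and incw1, of which bap-3b had a positive difference between the inbreds (0.73 ± 0.38, limma adjusted p = 0.17). The signal of incw1 was above the floor on 1 array. betl3 measured 9.07 in B73xMo17, 9.20 in Mo17xB73, 8.21 in B73 and 8.38 in Mo17 (mean log2, n = 3). It was called above the mid-parent (0.83 ± 0.13, limma adjusted p = 0.013), and its inbred difference was -0.17 ± 0.18 (limma adjusted p = 0.54). No gene of the list was below the floor on every array. Of the 2 genes known as androgenic embryo genes, ae1 (-2.36 ± 0.76) and ae3 (-2.21 ± 0.48) were both called lower in B73 than in Mo17, with all their signals below the floor. The part of the amount of basal endosperm RNA in the meg2 differences was not tested.

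The averages of the starchy endosperm and embryo lists ran in other orders than meg2. The starchy endosperm list averaged 11.88 ± 0.07 in B73xMo17, 11.73 ± 0.11 in Mo17xB73, 11.85 ± 0.10 in B73 and 11.00 ± 0.22 in Mo17 (mean log2 over the list ± SD over 3 arrays), and 4 of its 15 genes were called higher in B73 than in Mo17 and 0 lower, against 16.4% of all probe sets called higher. The low Mo17 average came mainly from 3 genes, the zein gene dzs18 (13.59 in B73 and 6.55 in Mo17, mean log2), o2, the regulator of zein genes (difference 2.82), and z1C2 (1.22). The other 12 differed by -0.11 to 0.49, and the list's median difference was 0.15. The embryo list averaged 11.12 ± 0.03 in B73xMo17, 11.33 ± 0.30 in Mo17xB73, 11.19 ± 0.07 in B73 and 10.61 ± 0.27 in Mo17. Of the 4 photosynthesis genes limma called none in any of the 7 comparisons, and their averages lay between 6.53 and 6.83. These averages mix unlike levels, such as ppdk1 (13.05 in B73) and lhcb5 (2.77 in B73). lhcb5 was below the floor on every array, and ssu1 was above it on 9. The aleurone list held only c1, below the floor on every array, and vpp1.

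**Figure D4:**
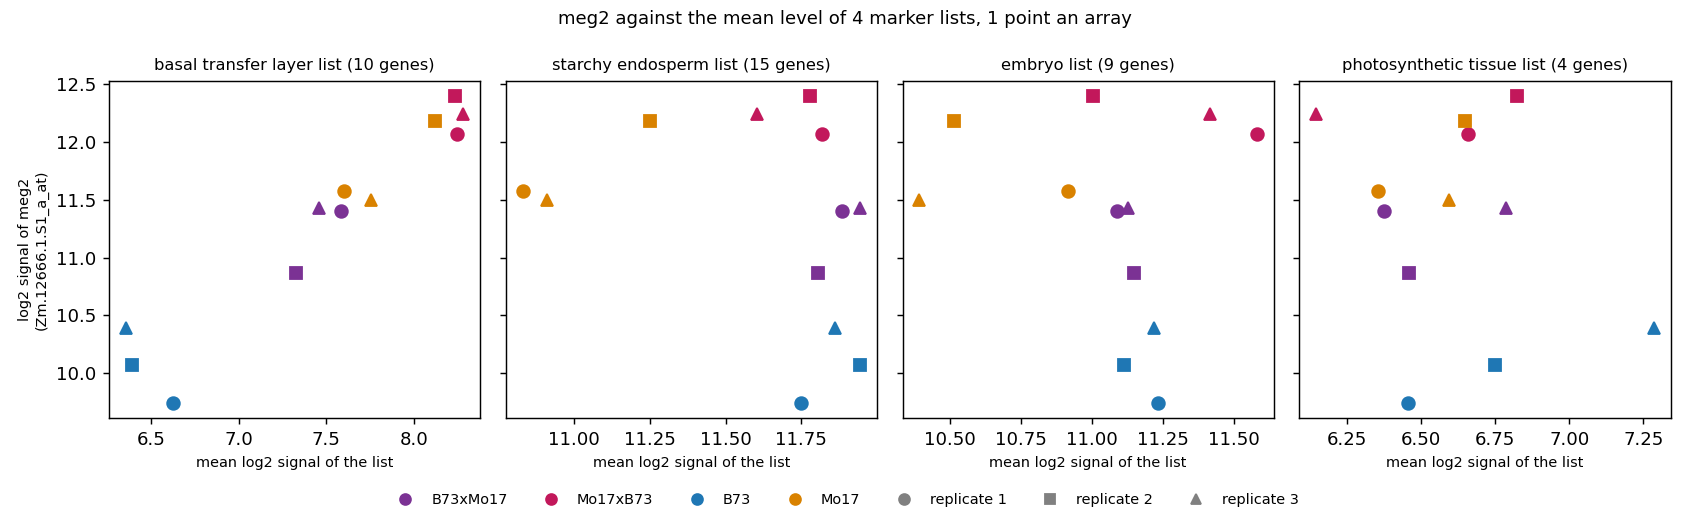
Log2 signal of meg2 (Zm.12666.1.S1_a_at, vertical axis) against the mean log2 signal of 4 marker lists (horizontal axes), with 1 point for each of the 12 arrays, colours for genotypes and symbols for replicates. The points rise together for the basal transfer layer list, from B73 at the lower left to Mo17xB73 at the upper right, while on the starchy endosperm list the Mo17 arrays lie to the left of the others.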

How the data were processed

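Biotin-labelled RNA of 12 samples (4 genotypes, 3 replicates each, groups and numbers from the titles) was hybridised to 1-colour Affymetrix maize arrays. The deposited values are linear probe set intensity values, made with MAS5 per the submitters' processing notes, and no scaling between arrays is recorded: array medians ran from 192.1 to 313.8. Precision is limited by the number of arrays. After 113 control probe sets were dropped, log2 signals of the other 17621 were quantile normalized. A model with 1 mean per genotype was fitted to the 12 arrays together in limma 3.58.1 (R 4.3.3; eBayes with intensity trend, two-sided, Benjamini-Hochberg adjustment over all 17621, threshold 0.05). The mid-parent standard error came from the delta method. The fit was checked on simulated data. A floor at the 25th percentile marks the low end, in place of detection calls, which were not used here.

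Alternatives were median centring, the values as deposited, a filter or floor on dim signals, no trend, the log2 mid-parent, the replicate number as a block and leaving out each array. Per the labels' protocols that number marks a shared collection date, which pairs the arrays. Deviations of same-numbered arrays correlated between -0.05 and 0.06.

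All probe sets of the 6 genes are named, with the 3 most correlated named genes each and up to 3 called genes of a marker list. Genes, lists and tests were chosen with earlier results of these data known. Names came from the platform table (1452 probe sets with 1 gene, 1 with several, 16168 unnamed here) and, for 1060 of 1108 genes, from RefSeq (Zm-B73-REFERENCE-NAM-5.0), used for names and neighbours only. Matches to other genes of the same name (a transporter named MRP1, a haemoglobin named GLB1, zpu1, a lec1 of uncertain identity) were left out. Sequences were not used here.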

Additional observations from a re-analysis of the deposited data

Results flagged for a closer look

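The meg2 difference between Mo17 and B73 pollen changed with the seed parent. That of esr2 had opposite signs under the 2 seed parents without passing the test. Each change of pollen here also set a hybrid against an inbred, and these cannot be told apart. In meg2, the signal with Mo17 pollen minus that with B73 pollen was 1.17 on a B73 mother and -0.48 on a Mo17 mother in the first probe set, Zm.12666.1.S1_a_at. It was 1.12 and -0.57 in the second, Zm.12666.1.S1_x_at. The difference on a Mo17 mother minus that on a B73 mother was -1.65 ± 0.28 (log2, SE; limma adjusted p = 0.0025) and -1.69 ± 0.30 (limma adjusted p = 0.0038), with opposite signs on all 3 dates. In esr2 this contrast was -1.85 ± 0.51 (limma adjusted p = 0.057), not past the threshold. The signs under the 2 seed parents were opposite on all 3 dates, with the difference on a Mo17 mother close to 0 on the third. This contrast is the same as the log2 mid-parent comparison of the hybrids times -2, so it adds no evidence to that comparison. The log2 mid-parent comparison called 5.0% of all probe sets. With the linear mid-parent neither meg2 probe set was called (limma adjusted p = 0.12 and 0.14).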

How the results depend on the processing

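The number of the 10 probe sets called was 5 between the inbreds, 2 between the hybrids, 0 against the mid-parent, 4 for B73xMo17 against B73, 1 for B73xMo17 against Mo17, 0 for Mo17xB73 against Mo17 and 6 for Mo17xB73 against B73. Between the hybrids it was 1 with the values as deposited (42 of all 17621 probe sets called) and 0 with the floor (76 of all) or without the trend (39 of all). Against the log2 mid-parent it was 2, both of meg2, with 5.0% of all probe sets called (0.528% with the linear mid-parent). With the floor it was 2 for B73xMo17 against B73 (1997 of all 17621 called) and 3 for Mo17xB73 against B73 (2909 of all). The filter on dim probe sets removed dim members and kept 4. It also gave 3 for Mo17xB73 against B73, where 23.4% of all kept probe sets were called. For B73xMo17 against Mo17 it was 3 with median centring (4492 of all 17621 called) and 2 of the 4 kept members with the filter (31.3% of all kept). It was 0 with the values as deposited (6.95% of all called) or without the trend (3400 of all 17621). Leaving out 1 array gave 5 to 8 between the inbreds, 0 to 2 between the hybrids, 0 to 1 against the mid-parent, 3 to 4 for B73xMo17 against B73, 0 to 2 for B73xMo17 against Mo17, 0 to 2 for Mo17xB73 against Mo17 and 4 to 7 for Mo17xB73 against B73. The cause of these changes was not tested. No called difference of a member changed sign under the alternatives run, and the replicate block ended no call and moved no count of members by over 1.5 times (7 against 5 between the inbreds). Over all probe sets the share called fell to 16.8% between the inbreds and 2.79% for B73xMo17 against B73 with the values as deposited, and to 0.221% between the hybrids without the trend. The values as deposited also moved the median difference of all probe sets to 0.12 between the hybrids (0.01 after quantile normalization) and to -0.17 for Mo17xB73 against B73 (-0.02). Signals near the floor limit what can be said of ESR1c1, ebe1 and ebe2.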
